A study of Mus musculus with 120 samples.

Results

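The relay neurons of taste and of touch were compared between 6 libraries of the parvicellular ventral posteromedial nucleus of the thalamus (VPMpc), labelled from insular cortex, and 4 libraries of the ventrobasal nucleus (VB), labelled from barrel cortex. These 10 libraries were taken by nucleus, tracer and target from the labels of the 120 libraries of mouse thalamic projection neurons in the series, which cover 22 nuclei. In every library of both groups the animals were recorded as wildtype, and DiI, a lipophilic dye taken up at axon endings and carried back to the cell body, marked the neurons. Marked neurons were picked by hand from dissected slices, so a library is a small pool of the neurons that reached the injected site, not a sample of the whole nucleus. The VPMpc libraries came from 1 animal each, 6 animals in all, with recorded ages of 447, 446, 133, 72, 62 and 62 for replicates 1 to 6 (the unit is not given in the table), and replicate 3 came from a female. The VB libraries came from 7 males of recorded age 69 to 100, and replicates 1 to 3 each pooled 2 animals. The 7 libraries of the posterior nucleus (PO), the other nucleus labelled by DiI from barrel cortex, serve as a reference, from 8 wildtype males of recorded age 69 to 100.

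VB carries touch and other body senses: it receives medial lemniscal and trigeminal input and drives the input layers of somatosensory cortex, and in rodents it holds the whisker barreloids. VPMpc lies beside it, receives taste and visceral signals through the brainstem parabrachial nucleus and projects to insular, gustatory cortex. Both are glutamatergic, and parvalbumin, calbindin and calretinin, which are calcium-binding proteins, are classic markers that divide thalamic nuclei.

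Total counts ran from 11115400 to 16610395 in VPMpc and from 9683962 to 14908025 in VB (exact two-sided permutation p = 0.429). Genes with a count numbered 11031 to 13417 in VPMpc and 12041 to 13419 in VB (mean 12096 against 13039, exact permutation p = 0.124, and 0.0476 without VPMpc replicate 1). A VPMpc library held 35 to 102 cells and a VB library 14 to 61 (mean 71.5 against 41.2, exact permutation p = 0.105). By the recorded date of the Ovation amplification step, the VPMpc libraries were made on 17 February (replicates 3 to 6) and 19 April 2016 (replicates 1 and 2) and the VB libraries on 5 April 2016, with no date or animal in common. Date and nucleus therefore cannot be told apart within these 10 libraries. Replicates 1 and 2 of VPMpc are also those of the highest recorded age. Of the replicate pairs none agreed within sampling noise (chi-square 75.8 to 369 times its degrees of freedom over 21 pairs). The p-values across genes below measure only the spread between libraries of a group, pooled over all 24 groups of the series.

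VB replicates 1 and 2 stood apart in several genes described below. Among genes higher in VPMpc and counted in VB, VB replicate 1 alone reached 10 CPM (the read count of a gene scaled to library size, with TMM factors) and 10 times the next VB library in 10 genes, and no other VB library did so in any. Necab1, a neuronal calcium-binding protein, had 122, 0.173, 0.305 and 0.400 CPM in VB replicates 1 to 4. Several of the genes in which VB replicate 2 stood highest are abundant in VB, among them Slc24a2 at 4929.5, 9728, 5711 and 5322 CPM. For many results that shift without 1 of these libraries the value without it is given beside the main one, though not for all.

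All 10 libraries held the markers of thalamic relay neurons. Slc17a6, the vesicular glutamate transporter VGLUT2, had 981 to 1452 CPM (median 1284) in VPMpc and 1084, 1189, 887 and 826 CPM in VB (log2 fold change 0.33, SE 0.19, adjusted p = 0.282), and the ranges overlapped. Tcf7l2, a transcription factor of the thalamus, had 2133 to 4009 CPM (median 2399) in VPMpc and 1201, 1671, 1176 and 1168 CPM in VB (log2 fold change 1.04, SE 0.20, adjusted p = 5.02e-05). VPMpc lay above VB in every library for Tcf7l2, but the call was lost with amplification date as a term and without 3 libraries of high oligodendrocyte markers, both described below. Slc17a7, the vesicular glutamate transporter of cortical neurons and of many relay cells, had 37.2 to 291 CPM (median 72.9) in VPMpc and 453, 175, 281 and 653 CPM in VB (log2 fold change -1.63, SE 0.82, adjusted p = 0.206), and the ranges overlapped. Of the microglia markers, Csf1r and C1qc could be measured, with a sum of 0 to 38.2 CPM in VPMpc and 0 to 85.0 in VB. Of 10 measured oligodendrocyte markers the sum was 1.47 to 316 CPM in VPMpc (median 70.8) and 75.4, 178, 768 and 2099 CPM in VB replicates 1 to 4. Of these 10 only the myelin gene Mag was called, with no count in VPMpc. Markers of astrocytes, endothelial cells and the choroid plexus were not analysed here. In pooled cells, fewer cells of a type and less RNA per cell cannot be told apart.

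A set of 3 genes had been named as markers of the pair, with earlier results of these data known, and 2 of them were called. Those calls are therefore not independent evidence for the markers. Bnc2 (basonuclin 2, a zinc finger protein; mm10 chromosome 4, 84275095 to 84675275, minus strand) had 105 to 348 CPM (median 198) in the VPMpc libraries and 0, 0, 0.102 and 0 CPM in the VB libraries. All 6 VPMpc libraries lay above all 4 VB libraries, which together held 1 read, all of it in replicate 3. The ratio of the levels was 9985 with a 95% counting interval of 1792 to 394405, and the adjusted p was 9.74e-05. Pvalb, parvalbumin (mm10 chromosome 15, 78191114 to 78206400, minus strand), had 0 to 0.161 CPM (median 0.0351) in VPMpc and 74.8, 31.1, 56.2 and 52.9 CPM in VB (log2 fold change -9.76, SE 1.63, adjusted p = 4.73e-06). Every VB library was far above every VPMpc library, and without VPMpc replicate 6 the log2 fold change was -10.38. Slco2a1, a prostaglandin transporter (mm10 chromosome 9, 102988712 to 103096002, plus strand), had 0.0701 to 89.5 CPM (median 34.0) in VPMpc and 156, 213, 174 and 114 CPM in VB. Its groups did not overlap, VPMpc replicates 2 and 4 were at or below 1.09 CPM, and the gene was not called (log2 fold change -2.31, SE 1.13, adjusted p = 0.192). For Slco2a1, without VPMpc replicate 6 the log2 fold change was -2.91.

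Of 16527 genes tested, 1521 (9.2%) differed between VPMpc and VB at an adjusted p under 0.05, which is the meaning of "called" throughout. VPMpc was higher in 794 (4.8%) and VB in 727 (4.4%), and the median log2 fold change over all genes, VPMpc over VB, was 0.03. Among the called genes 702 higher in VPMpc and 675 higher in VB differed by at least 1 log2 unit. The library values of VPMpc all lay above those of VB in 430 genes (2.6%) and below them in 465 (2.81%), 895 in all (5.42%). Of these 367 and 339 were called. With amplification date as a term (the date term) 620 genes were called, of which 366 were among the 1521 with the same direction. Of the other nuclei only LD was amplified on both a VPMpc date (17 February, 3 libraries) and the VB date (2 libraries). The date term between VPMpc and VB therefore rests on those LD libraries, and VPMpc replicates 1 and 2, made on 19 April, add nothing to it. Where a gene had few or no reads in LD, a call lost with the date term cannot show an effect of date. Without VPMpc replicate 2 and VB replicates 3 and 4, which held over 200 CPM of oligodendrocyte markers (the oligodendrocyte-high libraries), 576 were called, 521 of them among the 1521 with the same direction. This left VB replicates 1 and 2 as the only VB libraries, which stood apart in several genes. A call lost in that fit therefore cannot tell oligodendrocyte RNA from the smaller number of libraries or from the libraries that remain. In a fit of the 2 groups alone 458 were called, 452 of them among the 1521 with the same direction. Of 106 called genes that are considered by name, 54 kept their direction and call under every alternative setting run for this pair. A setting that gave a gene no adjusted p was counted as no change. With the date term 42 of the 106 lost the call.

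**Figure D1:**
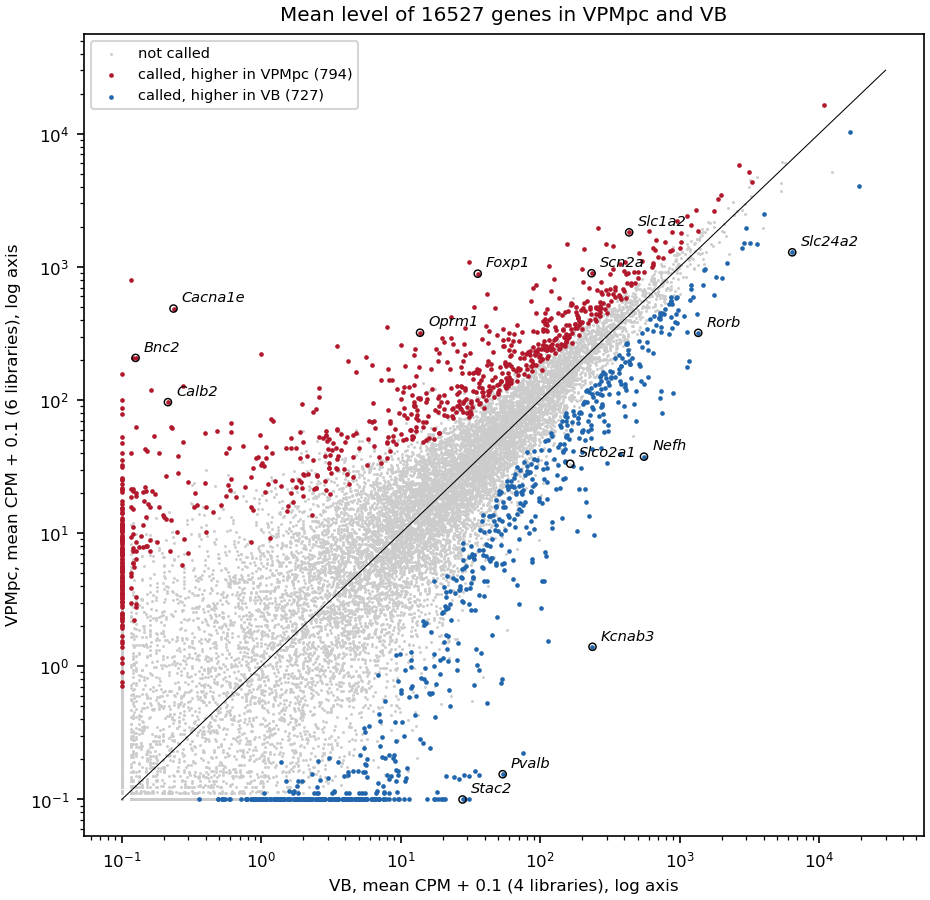
Mean level of each of 16527 genes in 4 VB libraries (x axis) and 6 VPMpc libraries (y axis), in CPM + 0.1 on log axes, 1 point per gene, with the line of equal levels. The 794 red and 727 blue genes were called higher in VPMpc and in VB, and Slco2a1, an open circle, lies far below the line without a call.

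The 12 largest called differences towards VPMpc (ranges not overlapping, mean at least 10 CPM), Bnc2 among them, were genes near or at 0 in VB. Cbln4, a cerebellin that organises synapses, had 55.7 to 337 CPM (median 100.4) in VPMpc and no read in any VB library, which made it at least 2542-fold higher (adjusted p = 2.44e-07). Gabrg1, a gamma subunit of GABA-A receptors, had 43.3 to 178 CPM (median 94.3) and no VB read (at least 1625-fold, adjusted p = 1.50e-10). The orphan receptor Gpr26 had 54.9 to 369 CPM (median 207) in VPMpc against 0.0791, 0, 0 and 0 CPM in VB, a ratio of 10434 with a 95% counting interval of 1873 to 412166, with the only VB read in replicate 1. These 3 were present in every VPMpc library and held at most 1 read over the 4 VB libraries. Cacna1e, the pore subunit of R-type calcium channels, was the most abundant of them, at 376 to 666 CPM (median 474) in VPMpc and 0.0791, 0.259, 0 and 0.200 CPM in VB (log2 fold change 11.67, SE 1.21, adjusted p = 5.70e-13).

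The other genes of this kind were Ldb2, a LIM-domain binding cofactor (at least 1419.9-fold higher), Slc17a8, the vesicular glutamate transporter VGLUT3 (at least 1274-fold), and Plcxd3 (at least 860.3-fold). Lpl, lipoprotein lipase, was at least 782-fold higher, the kinase Hunk at least 648-fold, the glycosyltransferase Gxylt2 at least 579.7-fold and the adaptor Gulp1 at least 411-fold. No VB library had a read of these 7. The spread within VPMpc was wide for Slc17a8, at 9.23 to 193 CPM (median 39.8), and for Gulp1, at 0.364 to 48.9 CPM (median 23.9). The calls of Ldb2, Slc17a8, Lpl and Gulp1 were lost with the date term. Their means in LD, on which that term rests, were 0.633, 0.210, 0.0947 and 0 CPM. The others of the 12, which kept the call, had 0.148 (Hunk) to 134 CPM (Cacna1e) in LD.

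In the other direction, 8 of the 12 largest differences had no read in any VPMpc library. Tspan11, a tetraspanin, had 36.9, 50.2, 8.76 and 27.0 CPM in VB (at least 763-fold higher), and Ppp1r3a, which targets protein phosphatase to glycogen, had 31.9, 48.8, 13.1 and 20.9 CPM (at least 712-fold). Kcne4, an auxiliary subunit of voltage-gated potassium channels, had 18.0, 27.1, 14.8 and 17.2 CPM (at least 478-fold). Kcne4 spread least over the 4 VB libraries. The others spread more, with the lowest values of Stac2, Cldn1, Cdkn1a and Pdlim3 all in VB replicate 2. Stac2, a partner of calcium channels, had 54.3, 1.30, 37.1 and 17.9 CPM (at least 686-fold) and the tight junction protein Cldn1 12.7, 0.0865, 22.9 and 47.3 CPM (at least 515-fold). The fitted log2 fold change of Cldn1 was -11.39, and -10.58 without VB replicate 4, values that rest on no VPMpc read. Cdkn1a, an inhibitor of cyclin-dependent kinases, was at least 434-fold higher, Pdlim3 at least 428-fold and the bestrophin Best3 at least 382-fold.

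St3gal1, a sialyltransferase, had 0 to 0.306 CPM (median 0.0722) in VPMpc and 81.3, 117, 33.3 and 68.5 CPM in VB (log2 fold change -9.17, SE 1.37, adjusted p = 1.96e-07). The zinc finger transcription factor Zbtb16 had 1 read in VPMpc and 24.9, 2.68, 24.8 and 19.8 CPM in VB, a ratio of 1347 with a 95% counting interval of 241 to 53274, with the read in replicate 6. VB replicate 2 was again the lowest VB library for Zbtb16. With the date term Tspan11, Stac2, Cdkn1a, Pdlim3 and Zbtb16 were no longer called, while Ppp1r3a, Cldn1, Kcne4, Best3, Bcan, St3gal1 and Pvalb were. Means in LD were 0 CPM for Stac2 and Pdlim3, 0.0253 for Cdkn1a, 1.21 for Tspan11 and 30.8 for Zbtb16. Those still called had 0.0342 (Kcne4) to 119 CPM (St3gal1) in LD.

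**Figure D2:**
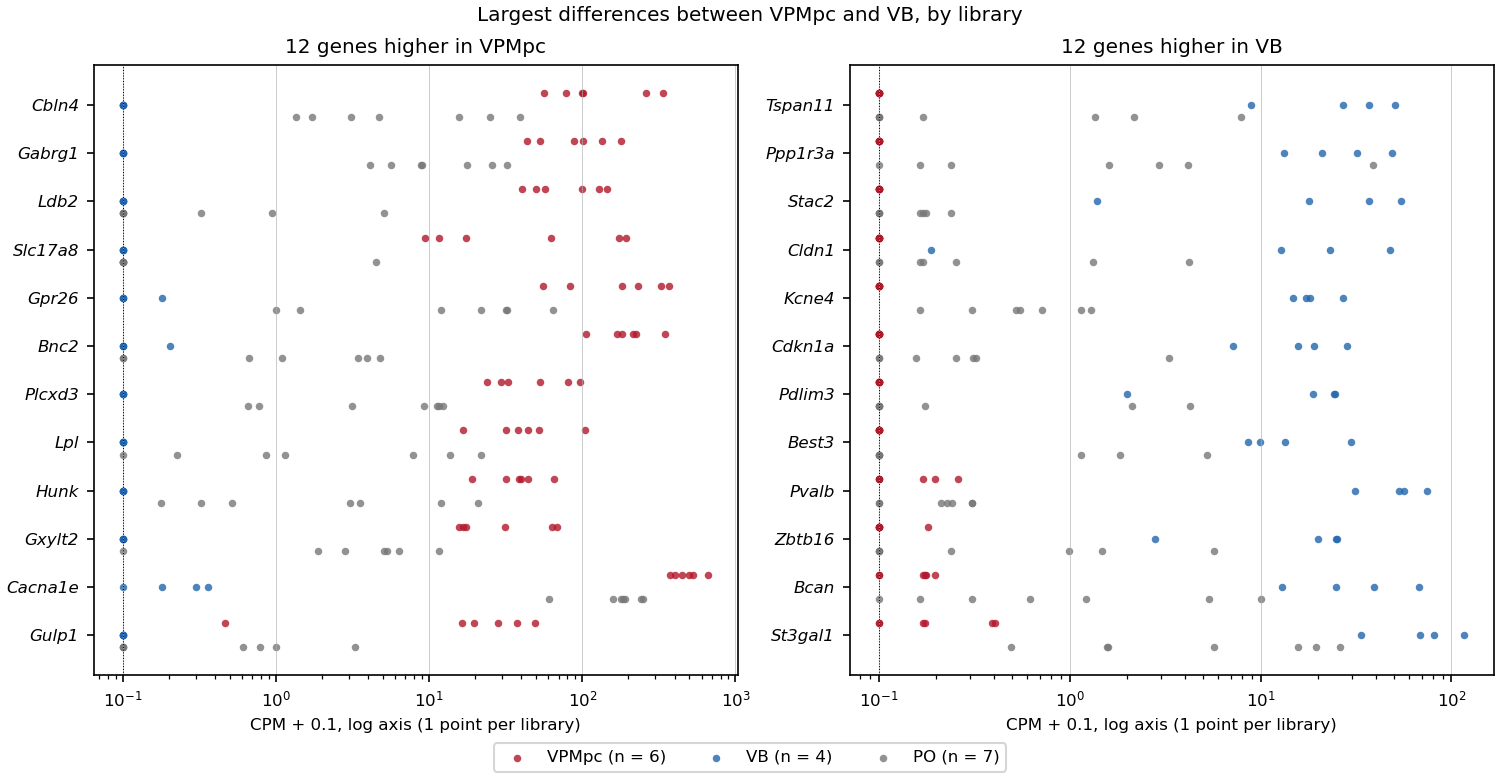
Level of the 12 genes with the largest called difference in each direction, in CPM + 0.1 on a log axis, 1 point per library of VPMpc (red), VB (blue) and PO (grey); the dotted line is a count of 0. VPMpc libraries lie to the right of VB libraries for the genes on the left and at or near 0 for the genes on the right, and the PO mean lies between the other two for all 24.

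Calcium-binding proteins included the classic thalamic markers. Of 17 measured, 7 were higher in VPMpc and 2 in VB (4 and 2 with the date term, 4 and 2 without the oligodendrocyte-high libraries), with a median log2 fold change of 0.86 against 0.03 over all genes. Counts of this and the later lists stand beside 4.8% and 4.4% of all genes, those with the date term beside 2.43% and 1.33%, and those without the oligodendrocyte-high libraries beside 1.56% and 1.92%. Calb1, calbindin, had 262 to 516 CPM (median 348) in VPMpc and 116, 10.5, 9.88 and 27.3 CPM in VB (log2 fold change 3.13, SE 0.55, adjusted p = 9.55e-06). VB replicate 1 was nearest to VPMpc, and without VB replicate 1 the log2 fold change was 4.49. Calb2, calretinin, which is also strongly expressed in the habenula, had 27.7 to 177 CPM (median 93.0) and 0.0791, 0.173, 0.204 and 0 CPM (log2 fold change 9.74, SE 1.44, adjusted p = 1.44e-07). The other measured habenula marker, Gpr151, was not called. Necab1 had 681 to 1623 CPM (median 1042) in VPMpc, above all VB libraries (log2 fold change 5.15, adjusted p = 8.43e-06), and without VB replicate 1 the log2 fold change was 11.79. Hpcal4, a visinin-like calcium sensor, was higher too (mean 241 against 17.9 CPM, VPMpc first here and below), as was Vsnl1 (5821 against 2661 CPM). Pcp4, a calmodulin-binding peptide, went the other way, with 77.8 to 131 CPM (median 105) in VPMpc and 555, 891, 735 and 694 CPM in VB (log2 fold change -2.79, SE 0.31, adjusted p = 8.49e-12). The groups of Calb1, Calb2, Necab1 and Pcp4 did not overlap.

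Among 59 measured transcription factors 11 were higher in VPMpc and 5 in VB (median log2 fold change 0.15; 3 and 4 with the date term, 3 and 6 without the oligodendrocyte-high libraries). Foxp1, a forkhead factor (mm10 chromosome 6, 98925338 to 99522721, minus strand), had 649.5 to 1397 CPM (median 869) in VPMpc and 29.7, 18.9, 41.4 and 52.2 CPM in VB (log2 fold change 4.64, SE 0.47, adjusted p = 2.98e-13). The lowest VPMpc library was over 10 times the highest VB library. Its relative Foxp2 had 187 to 587 CPM (median 358) and 78.8, 238, 56.7 and 66.7 CPM (log2 fold change 1.78, SE 0.45, adjusted p = 0.00423); VB replicate 2 lay within the VPMpc range, without VB replicate 2 the log2 fold change was 2.48, and the call was lost with the date term and without the oligodendrocyte-high libraries. Rorb, a retinoid-related orphan receptor, was higher in VB, with 127 to 505 CPM (median 303) against 969, 2422, 1137 and 913 CPM (log2 fold change -2.09, SE 0.30, adjusted p = 6.01e-08), and the ranges did not overlap. For Rorb, without VB replicate 2 the log2 fold change was -1.66. Rora had 1418 to 2957 CPM (median 2674) against 2797, 6928, 3022 and 3249 CPM (log2 fold change -0.68, SE 0.21, adjusted p = 0.0248), but the ranges overlapped and the call was lost without VB replicate 2 or without VPMpc replicate 3. Nfia was higher in VB (2.58 to 43.5 CPM, median 13.4, against 63.2, 70.7, 143 and 138 CPM, adjusted p = 0.00367), as were Mef2c (mean 352 against 735 CPM) and the LIM homeobox gene Lhx9 (13.3 against 43.2 CPM). Lhx2, another LIM homeobox gene, was higher in VPMpc (42.8 against 2.93 CPM), together with Zic2 (143 against 32.8), Tox (289 against 38.1) and Lmo4 (326 against 73.6 CPM). Gbx2, a homeobox factor of the developing thalamus, had 0 to 113 CPM (median 14.3) in VPMpc and 23.8, 0.605, 0.611 and 2.80 CPM in VB and was not called (adjusted p = 0.132); without VB replicate 1 the log2 fold change was 4.50 and the adjusted p 0.00709.

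Voltage-gated sodium channel genes were called in both directions: of 12 measured, 3 were higher in VPMpc and 4 in VB (median log2 fold change 0.54; 2 and 2 with the date term, 2 and 3 without the oligodendrocyte-high libraries). The pore subunit Scn2a, which serves the axon initial segment, had 607 to 1183 CPM (median 881) in VPMpc and 240.5, 313, 212 and 169 CPM in VB (log2 fold change 1.94, SE 0.20, adjusted p = 5.70e-13). All VPMpc libraries lay above all VB libraries. The other pore subunits went both ways, with Scn3a higher in VPMpc (mean 179.7 against 56.9 CPM, adjusted p = 2.40e-04) and Scn1a higher in VB (439 against 1336 CPM, adjusted p = 3.05e-09). Scn8a had 592 to 1170.2 CPM (median 1002) and 1513, 1859, 1325 and 1395 CPM (log2 fold change -0.67, SE 0.21, adjusted p = 0.0240), a call lost without VB replicate 2 or VPMpc replicate 6. Among beta subunits, which modify gating, Scn3b had 109 to 293 CPM (median 167) in VPMpc and 3.56, 0.173, 0.102 and 12.4 CPM in VB (log2 fold change 5.56, SE 0.74, adjusted p = 6.50e-09), and without VB replicate 4 the log2 fold change was 7.21. Scn4b, the beta subunit linked to resurgent sodium current, had 0 to 57.2 CPM (median 0.202) and 186, 118, 221 and 206 CPM (log2 fold change -4.16, SE 1.21, adjusted p = 0.0162). A single VPMpc library, replicate 5, accounted for its highest value, and without VPMpc replicate 5 the log2 fold change was -7.78. Scn4b was not called with the date term or without the oligodendrocyte-high libraries.

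Of 39 voltage-gated potassium channel genes 9 were higher in VPMpc and 8 in VB, and the median log2 fold change was 0 (4 and 9 with the date term, 4 and 7 without the oligodendrocyte-high libraries). Kcnab3, a beta subunit of Shaker-type channels, had 0 to 3.65 CPM (median 0.744) in VPMpc and 222, 263, 144 and 319 CPM in VB (log2 fold change -7.48, SE 1.03, adjusted p = 1.49e-08), and without VPMpc replicate 4 the log2 fold change was -8.12. It was higher in every VB library. Of the fast Kv3 genes, Kcnc1 was higher in VB (mean 404 against 725 CPM) while Kcnc2 had 891 to 1294 CPM (median 1062) and 1095, 1296, 1125 and 1245 CPM and was not called (log2 fold change -0.17, SE 0.20, adjusted p = 0.682). The Shaker-type pore subunits Kcna1 (92.9 against 469 CPM) and Kcna2 (730.2 against 1464 CPM), the beta subunit Kcnab2 (21.5 against 189.7 CPM) and the A-type channel Kcnd3 (145 against 444 CPM) were higher in VB as well. Higher in VPMpc were Kcnq5, an M-current channel, at 7.22 to 72.8 CPM (median 52.5) against 2.29, 0.0865, 0.102 and 0.0667 CPM (log2 fold change 6.12, SE 1.15, adjusted p = 4.39e-05), and Kcnt2, a sodium-activated channel (mean 81.6 against 2.24 CPM). For Kcnq5, without VB replicate 1 the log2 fold change was 8.96. Kcnh7 (459 against 150.2 CPM) and Kcnd2 (340.5 against 199 CPM) were higher in VPMpc by smaller factors. Kcna3 had 0 to 62.1 CPM (median 11.5) in VPMpc and 1 read in VB, in replicate 3, and lost its call with the date term.

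Leak, inward rectifier and HCN channels, which set the resting potential and bursting of relay cells, gave 5 of 21 higher in VPMpc and 2 higher in VB (median 0.13; 1 and 2 with the date term, 3 and 2 without the oligodendrocyte-high libraries). Pex5l, the HCN channel partner TRIP8b, was higher in VB (60.7 to 186 CPM, median 139.5, against 316, 475, 359.9 and 364 CPM; log2 fold change -1.52, SE 0.33, adjusted p = 6.20e-04). The inward rectifiers Kcnj2 (mean 56.2 against 0.294 CPM) and Kcnj6 (178 against 27.1 CPM) and the sodium leak channel Nalcn (238 against 119 CPM) were higher in VPMpc. For Kcnj2, without VB replicate 3 the log2 fold change was 9.88. Its call was lost with the date term and without the oligodendrocyte-high libraries.

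Genes of calcium channels and of calcium pumps were called in both directions. Of 20 voltage-gated calcium channel genes 5 were higher in VPMpc and 1 in VB (median 0.35; 4 and 1 with the date term, 3 and 0 without the oligodendrocyte-high libraries), and without VB replicate 4 they were 3 and 0. Beside Cacna1e, the auxiliary subunit Cacna2d2 (mean 68.0 against 14.3 CPM) and Cacng4, a TARP of AMPA receptors (216 against 60.3 CPM), were higher in VPMpc. Cacna1g, the T-type channel behind relay cell bursts, had 249 to 409.9 CPM (median 363) and 237, 209, 272 and 402 CPM and was not called (log2 fold change 0.31, SE 0.30, adjusted p = 0.593). Of 12 pumps and exchangers 3 were higher in VPMpc and 2 in VB (median 0.01; 2 and 3 with the date term, 1 and 2 without the oligodendrocyte-high libraries). Slc24a2, a potassium-dependent sodium-calcium exchanger, had 686 to 1914 CPM (median 1317) in VPMpc against the VB values given above (log2 fold change -2.32, SE 0.24, adjusted p = 5.70e-13). The plasma membrane calcium pump Atp2b1 had 1302 to 1771 CPM (median 1475) and 2721, 4326, 2875 and 2818 CPM (log2 fold change -1.07, SE 0.16, adjusted p = 3.02e-07). Both were higher in every VB library, with replicate 2 highest. Without VB replicate 2 the log2 fold changes were -2.06 for Slc24a2 and -0.90 for Atp2b1. Another pump, Atp2b4, had 15.9 to 328 CPM (median 93.1) in VPMpc and 0.0791, 0.173, 0 and 0 CPM in VB, a ratio of 1879 with a 95% counting interval of 643 to 9111. VPMpc replicate 2 held its highest value and VB replicate 2 had 2 of its 3 VB reads, and the call was lost without the oligodendrocyte-high libraries.

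**Figure D3:**
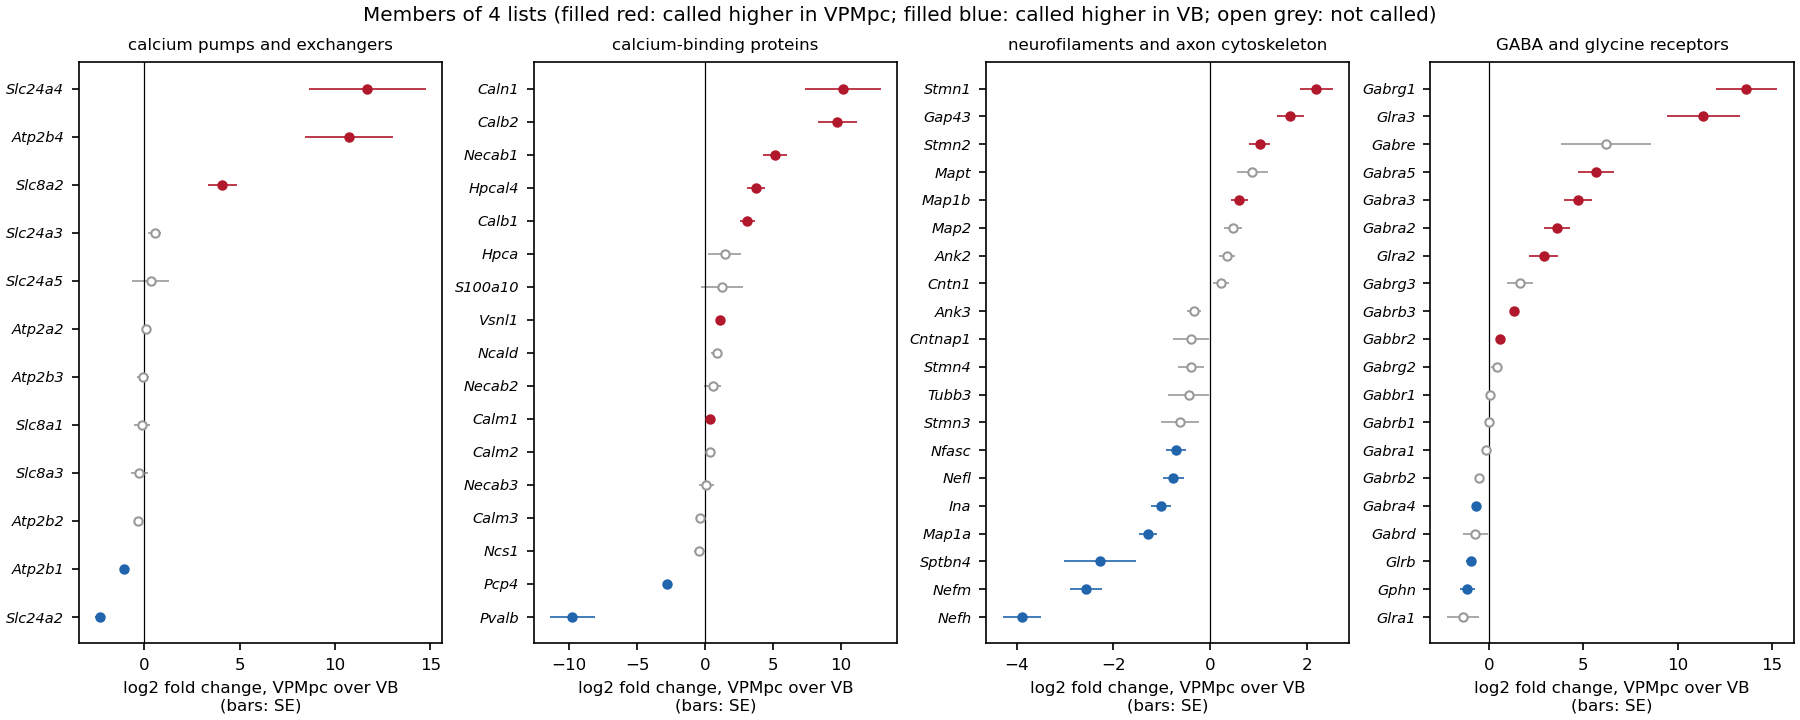
Log2 fold change, VPMpc over VB (x axis, bars SE), of every measured member of 4 gene lists, with called genes filled in red (higher in VPMpc) or blue (higher in VB). Calcium pumps and exchangers have 3 called members on the VPMpc side and 2 on the VB side, 2 of 17 calcium-binding genes lie on the VB side of the calls, and 7 of 20 neurofilament and axon genes do.

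Receptors for fast transmitters gave calls in both directions. Of 24 ionotropic glutamate receptor genes 5 were higher in VPMpc and 3 in VB (median 0.70; 3 and 2 with the date term, 2 and 2 without the oligodendrocyte-high libraries). Grin3a, an NMDA receptor subunit that lowers calcium permeability, had 174 to 277 CPM (median 212) in VPMpc and 45.6, 1.64, 0.102 and 2.20 CPM in VB (log2 fold change 4.14, SE 0.57, adjusted p = 1.72e-08). VPMpc lay above VB throughout, and without VB replicate 1 the log2 fold change was 7.33. The NMDA receptor subunit Grin2a, typical of mature synapses, was higher in VB (143 to 665 CPM, median 450.0, against 1018, 1629, 901 and 774 CPM; log2 fold change -1.34, SE 0.27, adjusted p = 1.58e-04). Among AMPA receptor subunits Gria3 was higher in VB (136 to 463 CPM, median 352, against 662, 1264, 814 and 803 CPM; log2 fold change -1.36, SE 0.29, adjusted p = 4.88e-04), a call lost with the date term, and so was Gria4 (mean 320.1 against 535 CPM). Kainate receptor subunit Grik2 (mean 553 against 215 CPM), delta receptor Grid1 (233 against 64.6 CPM) and the AMPA receptor partner Shisa9 (673 against 298 CPM) were higher in VPMpc. Of 9 metabotropic glutamate receptor genes 4 were higher in VPMpc and 0 in VB (median 1.39; 1 and 0 with the date term, 2 and 0 without the oligodendrocyte-high libraries). Among these Grm5 stood at 813 against 126 CPM (adjusted p = 1.33e-12) and Grm7 at 219 against 83.8 CPM. Grm2, a presynaptic autoreceptor, had 21.2 to 123 CPM (median 50.2) and 18.5, 0.0865, 0.102 and 0 CPM (log2 fold change 3.59, SE 0.94, adjusted p = 0.00580). For Grm2, without VB replicate 1 the log2 fold change was 9.79, a fitted value that rests on 2 VB reads. Date as a term or leaving out the oligodendrocyte-high libraries ended the call.

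GABA and glycine receptor genes gave 8 of 20 higher in VPMpc and 3 higher in VB (median 0.49; 6 and 2 with the date term, 6 and 1 without the oligodendrocyte-high libraries). Beside Gabrg1, the alpha subunits Gabra2 (mean 226 against 18.6 CPM, adjusted p = 3.08e-05), Gabra3 (258 against 9.86 CPM, adjusted p = 6.56e-07) and Gabra5 (92.9 against 1.85 CPM, adjusted p = 3.09e-06) were higher in VPMpc. Gabra4, the alpha subunit of tonic inhibition in relay cells, was higher in VB (527 against 841 CPM, adjusted p = 0.0123). Among glycine receptor subunits, Glra3 had 6.61 to 39.6 CPM (median 18.8) in VPMpc and no VB read (at least 333-fold higher, adjusted p = 5.95e-06), and Glra2 was higher as well (mean 112 against 15.1 CPM). The glycine receptor beta subunit Glrb, which binds gephyrin, had 94.8 to 373 CPM (median 204) and 474, 435, 470.2 and 335 CPM (log2 fold change -0.95, SE 0.27, adjusted p = 0.0159), a call lost without VPMpc replicate 2 or the oligodendrocyte-high libraries. Gephyrin itself, Gphn, was at 9.68 to 71.3 CPM (median 46.2) and 106, 108, 60.6 and 89.5 CPM (log2 fold change -1.15, SE 0.39, adjusted p = 0.0458) and lost its call with the date term and in 7 of the 10 fits that left out a library.

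Among the receptors of modulators more genes were called towards VPMpc than towards VB in the main test. The same held over all 661 list members, with 148 and 85. Fewer of these receptors were called towards VPMpc in the alternatives given below. Of 21 monoamine and acetylcholine receptors 7 were higher in VPMpc and 2 in VB (median 0.80, and 0.15 with genes absent from 1 group set at the level of 3 reads; 1 and 0 with the date term, 2 and 2 without the oligodendrocyte-high libraries). The serotonin receptor Htr2c had 121 to 628 CPM (median 189) in VPMpc and 8.93, 2.77, 0.611 and 1.20 CPM in VB (log2 fold change 6.24, SE 0.99, adjusted p = 1.01e-06), and without VB replicate 1 the log2 fold change was 7.38. The muscarinic receptors Chrm2 (mean 141 against 8.55 CPM) and Chrm3 (47.6 against 7.91 CPM) were higher too. Adra1b, an alpha-1 adrenergic receptor, was higher in VB (1.38 to 30.9 CPM, median 10.3, against 93.9, 57.4, 105 and 108 CPM; log2 fold change -2.77, SE 0.51, adjusted p = 3.42e-05), though not with the date term. Of 24 peptide, opioid and cannabinoid receptors 8 were higher in VPMpc and 1 in VB (median 0.70; 4 and 0 with the date term, 3 and 2 without the oligodendrocyte-high libraries). Leaving out VB replicate 1, 2, 3 or 4 gave 4, 4, 3 and 4 higher in VPMpc.

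Oprm1, the mu opioid receptor, had 257 to 397 CPM (median 311) in VPMpc and 7.43, 47.1, 0 and 0.0667 CPM in VB (log2 fold change 4.55, SE 0.87, adjusted p = 5.55e-05). Its VPMpc levels were close together and above every VB library, of which replicate 2 was the highest, and without VB replicate 2 the log2 fold change was 6.98. Adcyap1r1, the PACAP receptor PAC1, was higher in VPMpc (mean 179.6 against 10.6 CPM), and Prokr2, a prokineticin receptor, had 0 to 23.2 CPM (median 9.81) and no VB read (at least 195-fold, adjusted p = 1.73e-04). A VPMpc library had no Prokr2 read either, and the call was lost with the bias-adjusted form of the test. Vipr2, the VIP and PACAP receptor VPAC2, was higher in VB (0.161 to 30.0 CPM, median 6.30, against 283, 188, 276 and 218 CPM; log2 fold change -4.65, SE 0.92, adjusted p = 1.26e-04). For Vipr2, without VPMpc replicate 5 the log2 fold change was -5.46, and the date term ended the call. The cannabinoid receptor Cnr1 was counted in 1 VPMpc library only, replicate 6, at 17.3 CPM, and in 1 VB library. Its call (adjusted p = 0.0413) rests on that library, and without VPMpc replicate 6 the log2 fold change was -1.83 and the adjusted p 0.782.

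Among 14 neuropeptide genes 3 were higher in VPMpc and 1 in VB (median 0.46; 0 and 0 with the date term, 0 and 1 without the oligodendrocyte-high libraries), and without VB replicate 3 it was 1 each. Calca, which encodes CGRP, a peptide of the parabrachial input to VPMpc, had 0 to 6.03 CPM (median 1.06) in VPMpc and 7.12, 0, 0 and 0 CPM in VB and was not called (log2 fold change 0.32, SE 1.46, adjusted p = 0.965). VB replicate 1 held every VB read of Calca. Pdyn, prodynorphin, was counted above 1 CPM in VPMpc replicate 2 only, at 129.8 CPM, and had no VB read. Its call (adjusted p = 0.0199) rests on that library, since the adjusted p was 0.434 without it. Adcyap1, which encodes PACAP, was higher in VPMpc (mean 7.72 against 0.0333 CPM, adjusted p = 0.00625), and Npy was higher in VB, with no count in VPMpc and a mean of 8.87 CPM in VB (adjusted p = 0.00602).

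Secreted synaptic organisers gave 5 of 17 higher in VPMpc and 3 higher in VB (median 0.67; 3 and 1 with the date term, 4 and 2 without the oligodendrocyte-high libraries). Nxph1, a neurexophilin that binds neurexins, had 297 to 482 CPM (median 441) in VPMpc and 42.1, 29.6, 17.1 and 3.0 CPM in VB (log2 fold change 4.18, SE 0.52, adjusted p = 5.84e-10). Nrn1, neuritin, was higher in VB (64.7 to 192 CPM, median 141, against 278, 251, 352 and 352 CPM; log2 fold change -1.18, SE 0.21, adjusted p = 9.91e-06). Neither overlapped between the groups. The receptor of pentraxins Nptxr (mean 119 against 28.7 CPM) and Lgi1 (86.2 against 20.3 CPM) were higher in VPMpc, and Lgi3 in VB (22.6 against 88.7 CPM), where the call was lost with the date term and without the oligodendrocyte-high libraries.

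Vesicle release genes were called in both directions, 9 of 36 towards VPMpc and 7 towards VB (median 0.26, and 0.22 with genes absent from 1 group set at the level of 3 reads; 7 and 3 with the date term, 6 and 5 without the oligodendrocyte-high libraries). Cplx1, a complexin of fast release, had 64.1 to 275 CPM (median 180.0) in VPMpc and 1268, 807, 1185 and 1271 CPM in VB (log2 fold change -2.67, SE 0.30, adjusted p = 8.40e-12). Vamp1, a vesicle SNARE, had 14.3 to 124 CPM (median 71.2) and 492, 452, 542 and 448 CPM (log2 fold change -2.80, SE 0.41, adjusted p = 9.40e-08). Both were higher in every VB library, and Snap25 (mean 10348 against 16668 CPM) and Cadps (687 against 1207 CPM) were higher in VB by smaller factors. Syt2, the fast calcium sensor often found with Vamp1 and Cplx1, had 0 to 140.3 CPM (median 0.119) in VPMpc and 29.2, 14.3, 33.9 and 55.9 CPM in VB and was not called (adjusted p = 0.918). A single VPMpc library, replicate 2, held its high value, and without VPMpc replicate 2 the log2 fold change was -7.45 and the adjusted p 0.00615. Towards VPMpc, Syt5 had 56.4 to 183 CPM (median 124) and 9.88, 0, 0 and 0.0667 CPM (log2 fold change 5.61, SE 0.96, adjusted p = 5.95e-06), and without VB replicate 1 the log2 fold change was 11.79, a fitted value that rests on 1 VB read. Syt4 (mean 453 against 135 CPM), the priming factor Unc13b (159.9 against 32.8 CPM) and rabphilin, Rph3a (534 against 167 CPM), were higher in VPMpc too.

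Of 11 transmitter transporters 3 were higher in VPMpc and 2 in VB (median 0.33; 2 and 1 with the date term, 2 and 1 without the oligodendrocyte-high libraries). The glutamate transporter Slc1a2 had 1488 to 2159.7 CPM (median 1829.9) in VPMpc and 647, 665, 234 and 192 CPM in VB (log2 fold change 2.06, SE 0.23, adjusted p = 7.16e-12). It is best known from astrocytes, whose defining markers were not analysed here, and its groups did not overlap. Slc1a1, the neuronal glutamate transporter, was higher in VB (97.5 to 263 CPM, median 183, against 349.7, 417, 339 and 418 CPM; log2 fold change -1.08, SE 0.29, adjusted p = 0.00784), and its call was lost without the oligodendrocyte-high libraries.

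Neurofilament genes were higher in VB. Of 20 measured genes of neurofilaments and the axon cytoskeleton 4 were higher in VPMpc and 7 in VB (2 and 2 with the date term, 2 and 5 without the oligodendrocyte-high libraries), with a median log2 fold change of -0.40. The heavy neurofilament gene Nefh had 6.12 to 75.3 CPM (median 37.1) in VPMpc and 427, 759, 525 and 511 CPM in VB (log2 fold change -3.89, SE 0.40, adjusted p = 5.70e-13). The medium chain gene Nefm had 81.7 to 257 CPM (median 237) and 999, 2034, 930.1 and 741 CPM (log2 fold change -2.57, SE 0.33, adjusted p = 1.55e-09). Neither overlapped, and the light chain gene Nefl (mean 522 against 887 CPM), internexin, Ina (476 against 970.1 CPM), and the microtubule protein gene Map1a (821 against 2011 CPM) were higher in VB as well. A pair of genes tied to growing axons went the other way. Gap43 had 424 to 654 CPM (median 472) and 205, 267, 106 and 83.1 CPM (log2 fold change 1.65, SE 0.27, adjusted p = 2.72e-06), and stathmin, Stmn1, 91.6 to 241 CPM (median 173) and 51.3, 26.5, 34.9 and 33.3 CPM (log2 fold change 2.19, SE 0.34, adjusted p = 6.22e-07). The summed oligodendrocyte markers also reached their highest values in VB, and their part in these differences was not tested. Without the 3 libraries in which those markers were highest, Nefh, Nefm, Gap43 and Stmn1 were each called. The calls of the whole list fell there from 4 and 7 to 2 and 5. That fit kept only part of the VB libraries. It therefore cannot tell oligodendrocyte RNA from the smaller number of libraries or from the libraries that remain.

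Most cadherin and adhesion genes were not called, and of those that were, more were higher in VPMpc than in VB. Of 26 cadherins and protocadherins 5 were higher in VPMpc and 1 in VB (median 0.34; 2 and 1 with the date term, 4 and 1 without the oligodendrocyte-high libraries). Pcdh19 had 97.6 to 345 CPM (median 150.2) in VPMpc and 8.78, 23.8, 22.7 and 30.5 CPM in VB (log2 fold change 3.16, SE 0.50, adjusted p = 7.20e-07), and Pcdh9 was higher in VB (212 to 588 CPM, median 264, against 1044, 1240.0, 939 and 1295 CPM; log2 fold change -1.80, SE 0.22, adjusted p = 3.34e-10). Of 55 other adhesion genes 20 were higher in VPMpc and 4 in VB (median 0.59; 9 and 3 with the date term, 10 and 4 without the oligodendrocyte-high libraries). The postsynaptic adhesion gene Lrrtm4 had 20.2 to 106 CPM (median 51.0) and 2.06, 0.0865, 0.305 and 1.07 CPM (log2 fold change 5.92, SE 0.96, adjusted p = 1.70e-06), and without VB replicate 1 the log2 fold change was 6.74. Kirrel3, an immunoglobulin-type adhesion gene, had 57.4 to 295 CPM (median 152) and 6.56, 2.59, 4.38 and 5.27 CPM (log2 fold change 5.09, SE 0.80, adjusted p = 7.03e-07). All VPMpc libraries were above all VB libraries for both. Lrrtm3 (mean 176 against 13.5 CPM), Ncam1 (586 against 137 CPM), Ncam2 (218 against 28.7 CPM), Cadm1 (171 against 16.3 CPM) and Chl1 (289 against 58.4 CPM), all adhesion proteins of the cell surface, were among the others higher in VPMpc. Contactin 4, Cntn4, was higher in VB (43.1 to 72.9 CPM, median 54.8, against 341, 259, 285 and 259.5 CPM; log2 fold change -2.31, SE 0.33, adjusted p = 6.77e-08), and so was teneurin 2, Tenm2 (47.7 to 177 CPM, median 76.1, against 214, 407, 289 and 196 CPM; log2 fold change -1.63, SE 0.26, adjusted p = 6.89e-07).

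Axon guidance genes gave 12 of 52 higher in VPMpc and 5 higher in VB (median 0.93; 8 and 2 with the date term, 6 and 2 without the oligodendrocyte-high libraries). Among receptors, Epha5 (mean 242 against 12.5 CPM, adjusted p = 9.91e-13), Epha6 (122 against 16.7 CPM), Plxnc1 (503 against 33.2 CPM, adjusted p = 2.12e-10), Robo2 (170.2 against 7.95 CPM) and the netrin receptor Dcc (95 against 6.19 CPM) were higher in VPMpc. The ligand Slit1 had 3.60 to 55.9 CPM (median 18.9) in VPMpc and no VB read (at least 384-fold higher, adjusted p = 1.81e-04). Plxna4, a semaphorin receptor, was higher in VB (37.2 to 145 CPM, median 69.9, against 374, 363, 463 and 416 CPM; log2 fold change -2.41, SE 0.31, adjusted p = 1.34e-09). The semaphorin Sema6d was higher in VB too (mean 132 against 553 CPM). Sema7a had 0.0910 to 62.4 CPM (median 2.25) and 164, 72.9, 141 and 143 CPM (log2 fold change -2.60, SE 0.79, adjusted p = 0.0229), and lost its call in 5 of the 10 fits that left out a library and with the date term. For Sema7a, without VPMpc replicate 5 the log2 fold change was -3.29.

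Of 39 RGS and cyclic nucleotide genes 7 were higher in VPMpc and 2 in VB (median 0.25; 3 and 0 with the date term, 4 and 2 without the oligodendrocyte-high libraries). Pde4b, a cyclic AMP phosphodiesterase, had 146 to 441 CPM (median 306) and 30.9, 2.33, 31.6 and 26.4 CPM (log2 fold change 3.68, SE 0.43, adjusted p = 6.59e-11), and Rgs17 was higher in VPMpc (mean 1370.2 against 205 CPM). The kinase gene Prkcd, a marker of relay nuclei, was higher in VB (451 to 808 CPM, median 618, against 1921, 1294, 1872 and 1934 CPM; log2 fold change -1.53, SE 0.45, adjusted p = 0.0168), as was the adenylyl cyclase Adcy1 (215 to 499 CPM, median 297, against 756, 924, 836 and 818 CPM; log2 fold change -1.40, SE 0.26, adjusted p = 3.56e-05). The calls of Prkcd and Adcy1 were lost with the date term, and that of Prkcd without the oligodendrocyte-high libraries. Of 29 matrix genes 5 were higher in VPMpc and 4 in VB (median 0.44; 1 and 3 with the date term, 0 and 3 without the oligodendrocyte-high libraries). Brevican, Bcan, a proteoglycan of perineuronal nets, had 0 to 0.0972 CPM (median 0.0722) and 24.7, 12.9, 39.2 and 67.6 CPM (log2 fold change -9.21, SE 1.65, adjusted p = 1.59e-05), and tenascin C, Tnc, had 3 reads over the 6 VPMpc libraries, 2 of them in replicate 2, against 5.30, 44.1, 28.4 and 27.1 CPM in VB, a ratio of 639 with a 95% counting interval of 218 to 3105. Spon1, spondin 1, was higher in VPMpc (495 to 850.3 CPM, median 759, against 135, 101, 74.5 and 62.9 CPM; log2 fold change 2.97, SE 0.71, adjusted p = 0.00220), a call lost with the date term and without the oligodendrocyte-high libraries.

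Oxidative phosphorylation genes were called towards VB in this test: 0 of 73 were higher in VPMpc and 15 higher in VB, with a median log2 fold change of -0.75. Atp5b, the beta subunit of ATP synthase, stood at 844 against 1819 CPM (adjusted p = 6.77e-06) and Uqcrc2, of the cytochrome bc1 complex, at 50.6 against 160.5 CPM. Uqcr10 had 0.728 to 43.7 CPM (median 15.6) in VPMpc and 75.8, 57.1, 75.6 and 102 CPM in VB (log2 fold change -2.18, SE 0.49, adjusted p = 9.01e-04), and its call was among those lost in the fits named next. With the date term 3 of 73 were called, without the oligodendrocyte-high libraries 3, and in a fit of the 2 groups alone 2. Leaving out VB replicate 3 or VB replicate 4 gave 8 each. The part of date, age and oligodendrocyte RNA in this list was not tested. Of 11 immediate early genes Junb alone was called, with no count in VPMpc and a mean of 0.979 CPM in VB (adjusted p = 0.0131), and the median was -1.13.

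**Figure D4:**
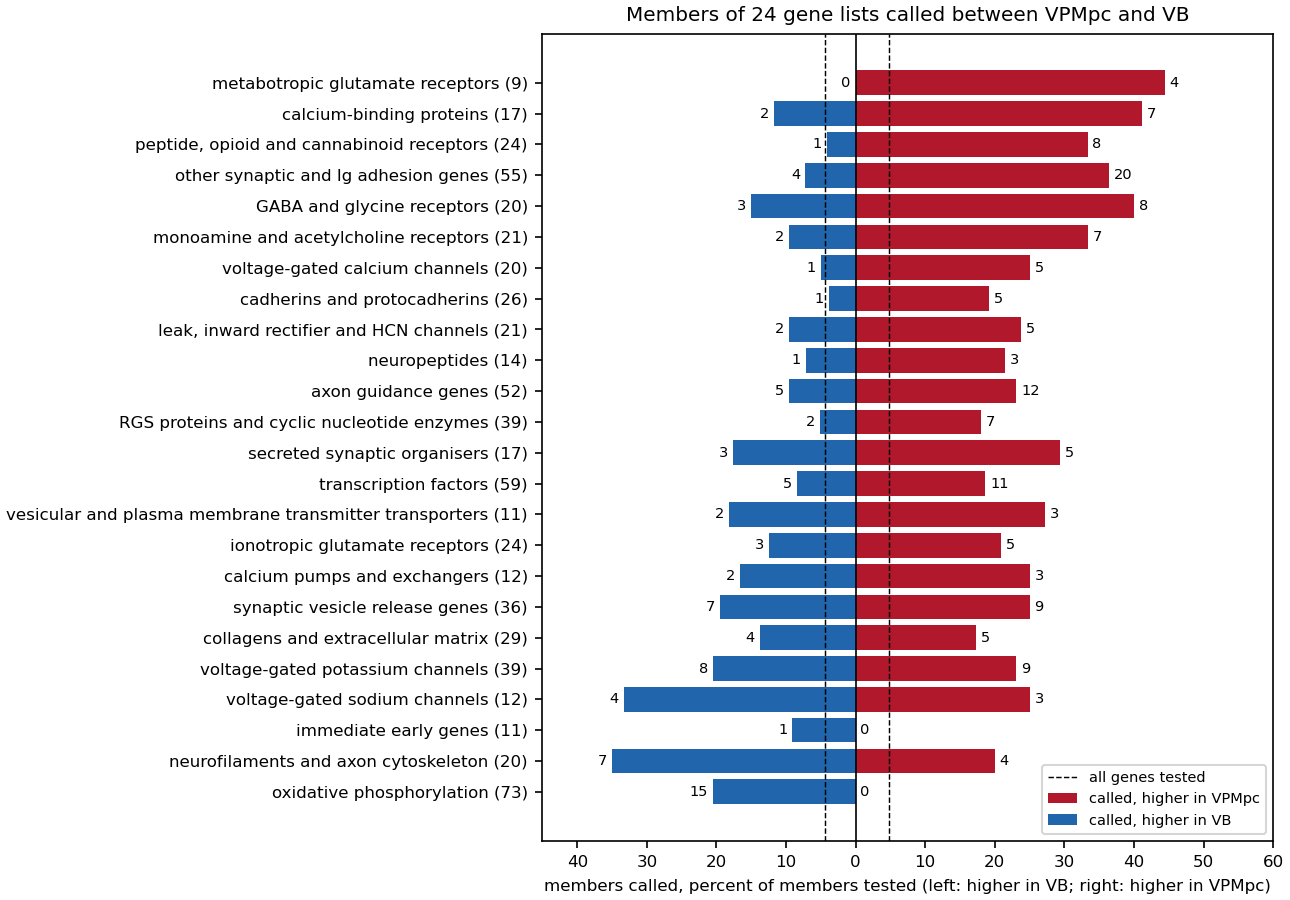
Share of the measured members of 24 gene lists called higher in VPMpc (right, red) and in VB (left, blue), in percent, with counts at the bars and members measured in brackets; dashed lines give the shares over all genes tested, 4.8% and 4.4%. The bars of neurofilaments and of sodium channels reach further to the left. Oxidative phosphorylation and immediate early genes have a bar to the left only, and the bars of the other lists reach further to the right.

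PO, labelled from barrel cortex as VB was, was set beside both. Between VPMpc and PO 828 genes (5.01%) were called, 429 higher in VPMpc (2.6%) and 399 higher in PO (2.41%), and between PO and VB 438 (2.65%), 265 higher in PO (1.6%) and 173 higher in VB (1.05%). The comparisons share libraries, and 6 animals gave cells to both PO and VB. With library sizes by total counts the split of VPMpc against PO was 286 to 500, and that scaling moved the median log2 fold change of all genes to -0.12. Without VPMpc replicate 2 the number called was 483, and with the date term 99. With DESeq2 the split was 652 higher in VPMpc to 1056 higher in PO. The split of PO against VB turned to 73 higher in PO and 105 higher in VB without the oligodendrocyte-high libraries and to 291 and 326 with edgeR's bias-adjusted test, while DESeq2 gave 897 and 331.

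In PO the VPMpc and VB markers lay at different places between the pair. Bnc2 stood at 0 to 4.65 CPM (median 0.994) in PO, and VPMpc was higher (log2 fold change 6.75, SE 1.42, adjusted p = 0.00163). Cacna1e stood at 60.9 to 250.1 CPM (median 185), not called against VPMpc (log2 fold change 1.43, SE 0.58, adjusted p = 0.118) and above VB (adjusted p = 1.21e-10). Foxp1 stood at 109 to 246 CPM (median 152), again below VPMpc (log2 fold change 2.52, SE 0.34, adjusted p = 7.56e-08) and above VB (log2 fold change 2.13, SE 0.40, adjusted p = 1.66e-04). Oprm1, at 23.7 to 70.3 CPM (median 35.9) in PO, was higher in VPMpc (log2 fold change 2.90, SE 0.63, adjusted p = 0.00204), while PO and VB were not told apart (log2 fold change 1.65, SE 0.73, adjusted p = 0.253).

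Genes higher in VB than in VPMpc had a wide range of levels in PO. Pvalb stood at 0 to 0.209 CPM (median 0.127) in PO, below VB (log2 fold change -8.78, SE 1.44, adjusted p = 9.67e-06), and was not called against VPMpc (log2 fold change -0.98, SE 1.28, adjusted p = 0.722). Kcnab3, at 15.2 to 42.3 CPM (median 18.8), was below VB (log2 fold change -3.27, SE 0.82, adjusted p = 0.00825) and above VPMpc (log2 fold change -4.21, SE 0.86, adjusted p = 7.89e-04). Rorb, at 235 to 497 CPM (median 381), was below VB (log2 fold change -1.84, SE 0.29, adjusted p = 2.38e-06) and not called against VPMpc (log2 fold change -0.25, SE 0.26, adjusted p = 0.632). Nefh, at 78.3 to 159.8 CPM (median 112), was below VB (log2 fold change -2.32, SE 0.36, adjusted p = 2.60e-06) with an adjusted p of 0.00216 against VPMpc. Slco2a1 had a mean of 41.7 CPM in PO, beside 33.1 in VPMpc and 164 in VB. Slc24a2 had a mean of 3014 CPM in PO, beside 1286 in VPMpc and 6422 in VB.

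Across the 22 nuclei Bnc2 was highest in VPMpc, at 207 ± 80.9 CPM (SD, n = 6), with RE (9.97 CPM) next. Oprm1 and Foxp1 were also highest there, at 320.1 ± 48.2 and 889 ± 273 CPM, but PCN (299 CPM) and AM (817 CPM), the next nuclei, lay within 1 SD of the VPMpc mean. Slc17a8 was highest in VPMpc at 77.9 ± 84.4 CPM with a wide spread, followed by IMD (59.1 CPM). Gpr26 was highest in VPMpc at 208 ± 127 CPM, followed by RE (76.3 CPM). Hunk and Gxylt2 were highest in VPMpc too, but the others of the 12 largest differences towards VPMpc peaked elsewhere. Cbln4 (156 CPM in VPMpc), Ldb2 (86.9) and Gulp1 (25.1) peaked in SPA, at 313, 195 and 25.7 CPM. Gabrg1 (99.4 CPM in VPMpc), Lpl (47.8), Plcxd3 (52.6) and Cacna1e (486) peaked in RE, at 203, 75.8, 55.2 and 556 CPM. VB was the highest nucleus for Slco2a1, at 164 ± 40.9 CPM (SD, n = 4), followed by LGd (79.2 CPM), and for Kcnab3, at 237 ± 73.7 CPM, followed by VL (138 CPM). VB also ranked highest for Rorb (1360.2 ± 715 CPM) and Slc24a2 (6422 ± 2227 CPM), though VL (1144 CPM) and LGd (5296 CPM) lay within 1 SD. For Pvalb VB came after VL (76.4 CPM). Of the other largest differences towards VB, Tspan11, Cldn1 and Kcne4 were highest in VB. Ppp1r3a and Pdlim3 peaked in VL (44.7 and 37.8 CPM), and Stac2 and Cdkn1a in AD (80.7 and 36.8 CPM). St3gal1 and Bcan peaked in LD (119 and 69.7 CPM), Zbtb16 in AV (39.6 CPM) and Best3 in AM (27.4 CPM). VB and VPMpc lay at the opposite ends of the 22 nuclei for Foxp1, with VB lowest, and for Kcnab3, with VPMpc lowest. Against the mean of the log levels of the 20 other nuclei, 4082 genes (24.7%) were called for VPMpc, 3103 higher (18.8%) and 979 lower (5.92%), and 1654 (10%) for VB, 1247 higher (7.55%) and 407 lower (2.46%). With library sizes by total counts the VPMpc split was 2272 to 1310, where the median log2 fold change of all genes moved to -0.12 (-0.13 for VB). With DESeq2 the split was 2287 higher to 2193 lower for VPMpc, and for VB it turned to 718 higher and 1204 lower.

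**Figure D5:**
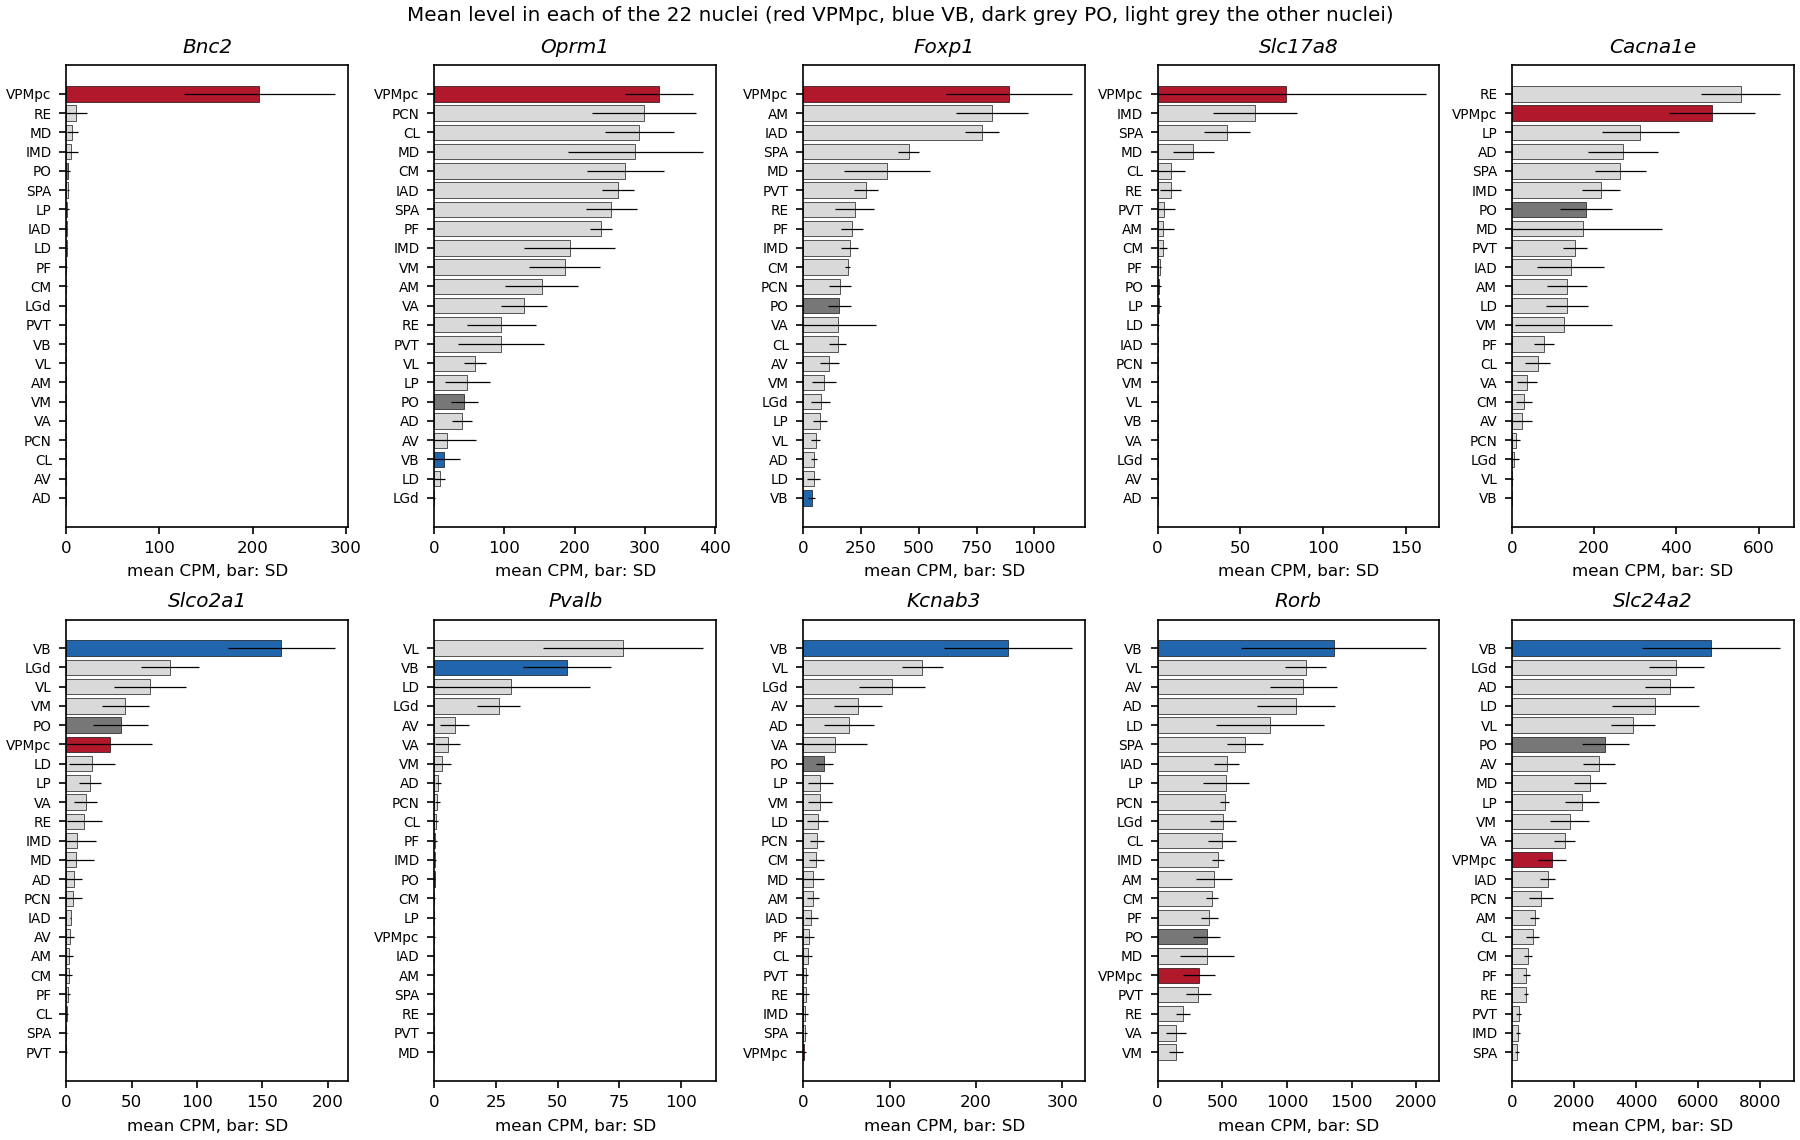
Mean level (CPM, bars SD over libraries) of 10 genes in each of the 22 nuclei, ordered by level, with VPMpc in red, VB in blue and PO in dark grey. In the upper row VPMpc leads or comes after RE for Cacna1e, and in the lower row VB leads or comes after VL for Pvalb.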

How the data were processed

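Gene counts of 120 bulk RNA-seq libraries of hand-picked labelled neurons were used, of which 17 (6 VPMpc, 4 VB and 7 PO) carry the results here. The authors deposited raw counts per gene. Trimming with cutadapt 1.16, alignment with STAR 2.5.3a and counting with featureCounts 1.52 on mm10 are read from the names in the submitters' processing notes. Molecular identifiers and strand-specific counting are not given in the sources used here, so intervals cover counting error only and overlapping genes cannot be told apart. The members and gene lists were chosen with earlier results of these data known.

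From the counts, edgeR 4.0.16 (R 4.3.3, limma 3.58.1) was fitted by quasi-likelihood to all 120 libraries with 1 term for each of 24 groups of nucleus, tracer and target, after filterByExpr (minimum count 10, minimum total 15), which kept 16527 of 16538 genes. Adjusted p-values are Benjamini-Hochberg over all genes tested. CPM was computed here with TMM-scaled library sizes. DESeq2 1.42.0 and the settings in the closing section were alternatives. Single values per library were compared by exact permutation tests in Python 3.11.15. A floor of 3 reads over a group stood in for a group without reads. Scripts were tested on simulated data. There the VPMpc against VB test called 10 of 100 genes with a true 2-fold change and 41 of 100 with a 4-fold change. Of 16327 unchanged genes it called 4. A gene that was not called may therefore still differ by such factors.

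Genes named with library values are the 12 largest called differences per direction with ranges that do not overlap, up to 2 called genes per list and direction (both with a mean of at least 10 CPM), and a set of thalamic genes taken whatever their test, 114 in all, of which the text describes most; some results, those of the inhibitory neuron marker list among them, are not reported here. Further list members, given as means only, were chosen after their values were seen. Total counts per library (9683962 to 16610395 in VPMpc and VB) limit a single read to about 0.1 CPM. Coordinates are those of the mm10 annotation.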

Additional observations from a re-analysis of the deposited data

Results flagged for a closer look

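A group of 4 to 10 libraries was checked for a value whose gap to its nearest neighbour, over the range of the group, passed the 95% critical value of Dixon's test. Of 196 such groups 35 held one. The 1 in 20 that chance gives holds for normally distributed values and not for sparse counts, and in 7 of the 35 every other library of the group was at 0. Of the 35, 9 were at VB replicate 1 and 9 at VB replicate 2.

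VB replicate 1 was the highest of the 4 VB libraries in genes that were otherwise low in VB, namely Gpr26 at 0.0791 CPM (others 0), Necab1 at 122 CPM (others 0.173 to 0.400), Kcnq5 at 2.29 CPM (others 0.0667 to 0.102), Grin3a at 45.6 CPM (others 0.102 to 2.20), Grm2 at 18.5 CPM (others 0 to 0.102), Syt5 at 9.88 CPM (others 0 to 0.0667), Calb1 at 116 CPM (others 9.88 to 27.3), Calca at 7.12 CPM (others 0) and Gbx2 at 23.8 CPM (others 0.605 to 2.80). Of these 9 genes 7 were called higher in VPMpc, and this library lay nearest to VPMpc in those 7.

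VB replicate 2 had the fewest genes with a count, 12041 against 13299 to 13419 in the others. It was the highest VB library, or in Prkcd the lowest, in Slc24a2 at 9728 CPM (others 4929.5 to 5711), Atp2b1 at 4326 CPM (others 2721 to 2875), Rorb at 2422 CPM (others 913 to 1137), Prkcd at 1294 CPM (others 1872 to 1934), Tcf7l2 at 1671 CPM (others 1168 to 1201), Rora at 6928 CPM (others 2797 to 3249), Foxp2 at 238 CPM (others 56.7 to 78.8) and Oprm1 at 47.1 CPM (others 0 to 7.43).

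VB replicate 3 held the highest VB value at levels of a few reads in Bnc2 at 0.102 CPM (others 0), Kcna3 at 0.102 CPM (others 0) and Kcnj2 at 1.02 CPM (others 0 to 0.158). VB replicate 4 held the single VB read of Cnr1 (0.0667 CPM, others 0).

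Among the 6 VPMpc libraries, replicate 2 was the highest in Atp2b4 at 328 CPM (others 15.9 to 98.3), Pdyn at 129.8 CPM (others 0 to 0.242), Tenm2 at 177 CPM (others 47.7 to 92.4), Foxp1 at 1397 CPM (others 649.5 to 895), Nfia at 43.5 CPM (others 2.58 to 15.2) and Syt2 at 140.3 CPM (others 0 to 0.595). Replicate 3 was the lowest in Gria3 at 136 CPM (others 342 to 463) and Rora at 1418 CPM (others 2415 to 2957). Replicate 4 was the highest in Gbx2 at 113 CPM (others 0 to 38.9) and Htr2c at 628 CPM (others 121 to 244). Replicate 5 was the highest in Scn4b at 57.2 CPM (others 0 to 3.71), and replicate 6 in Zbtb16 at 0.0806 CPM (others 0) and Cnr1 at 17.3 CPM (others 0). Replicate 2 holds the fewest cells of VPMpc, 35, and the fewest genes with a count, 11031, and its part in these values was not tested.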

How the results depend on the processing

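The 1521 genes called between VPMpc and VB became 2515 with DESeq2 (1465 shared, same direction), 620 with amplification date as a term, 803 with male libraries only, 458 in a fit of the 2 groups alone and 576 without the 3 libraries of high oligodendrocyte markers, chosen after seeing the data. The last of these fits kept only VB replicates 1 and 2 of the VB group. Leaving out 1 library gave 1092 to 1621. For VPMpc against PO the 828 became 1708, 99, 248 and 476 with DESeq2, the date term, male libraries and without those 3 libraries, and 478 with a 5 CPM filter, with 483 to 946 when 1 library was left out. For PO against VB the 438 became 1228, 222, 271 and 178 under the first 4 of these. Against the other nuclei, the 5 CPM filter gave 2631 for VPMpc and 1020 for VB, and leaving out the 3 libraries 1029 for VB.

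With replicate number as a block, 393 genes were called between VPMpc and VB. The numbers share no animal, and same-numbered libraries did not deviate together (r 0.014, 0.024, 0.030 and -0.004), so they do not pair the libraries. Of the 661 members of the gene lists, 233 were called in the main test, 118 with the date term, 123 with the block, 134 in the 2 groups alone and 132 without the 3 libraries. Of 106 called genes considered by name 13 lost the call when some 1 library was left out, and 1 changed sign (Cnr1, log2 fold change -1.83 without VPMpc replicate 6, and up to 8.54 without VB replicate 4). Slc17a6 changed sign with the date term (-0.27). The log2 fold change of Calca, VPMpc against VB, never called, was -0.0891 with the date term, -0.0902, -0.0860 and -0.0924 without VB replicates 2, 3 and 4, -0.0959 and -0.277 without VPMpc replicates 1 and 4, -0.0878 without both VPMpc replicates 1 and 2, -0.598 without the 3 libraries and at most 8.17 (without VB replicate 1). The exact permutation p for genes with a count ran from 0.0476 to 0.262 when 1 library was left out. The cause of these changes was not tested. A fit with libraries of 1 animal summed was not run, since no animal gave 2 libraries in a group.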
